A study of Mus musculus with 12 samples.

Results

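Apolipoproteins and their partners carry, release and sense lipid, and the genes described here are 10 members of that machinery, chosen by symbol: Apoe, Apoc1, Apoc2, Apoc4, Lpl, Abca1, Abcg1, Trem2, Tyrobp and Pla2g7. They are 10 of the 31054 features counted in the treated libraries. Each of them had at least 1 UMI (unique molecular identifier, a tag that marks 1 captured RNA molecule) in some library. A filter on low counts left 9 of the 10 for testing, and Apoc2, with at most 1 UMI in any library, was not tested.

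Single-cell RNA was sequenced from the 3′ end in 12 libraries of C57BL/6J mice. For 8 of them, 4 mice were conditioned with busulfan, a drug that clears bone marrow, and dosed intravenously (i.v.) or into the brain ventricle (i.c.v.) with hematopoietic stem and progenitor cells of male donors that carried a lentiviral vector encoding GFP (LVV.GFP). All these mice also received unmodified bone marrow i.v. 5 days later, so marrow-derived cells without the vector can lie in the GFP- sort, and each route was represented by 1 female and 1 male. From each brain, cells positive for CD45, CD11b and CX3CR1 were sorted into GFP+ microglia-like cells (MLCs) and GFP- endogenous microglia, which gives 4 GFP+ and 4 GFP- libraries, 2 of each per route. The labels give these mice an age of 22 to 28 weeks, although the study's text describes animals kept far longer after dosing. The other 4 libraries came, by the study's text, from 1 treatment-naive mouse, of 8 to 12 weeks by the labels, and hold sorted microglia, astrocytes, neurons and blood mononuclear cells (PBMCs). With 1 library each and a shared animal, those 4 allow no test, and treatment, age and preparation cannot be told apart between them and the treated mice.

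The kept cells held 4970758 to 16514669 UMIs per treated library and 987965 to 4804709 per naive library. EGFP, the vector's transcript, checked the sort, at 16.8 to 33.3 UMIs per 1000000 UMIs counted (CPM) in the GFP+ libraries and 0 to 0.153 CPM in the GFP- libraries. Markers of CNS-associated macrophages (CAMs), the macrophages at the borders of the brain, were higher in the GFP+ sort, where their 9 genes summed to 2029 to 2720 CPM against 894 to 1627 CPM in the GFP- sort, with none at 0. Markers of microglia went the other way, with 5637 to 10731 CPM over 10 genes in the GFP+ and 11673 to 16851 CPM in the GFP- libraries. The study's text reports Ms4a7, Mrc1, Pf4 and Stab1, which are among the CAM genes used here, as enriched in clusters of mostly GFP+ cells. Carrying CAM markers thus does not by itself make a cell a border macrophage here. The library labelled neurons went against its label, since 95.5% of its cells carried at least 3 oligodendrocyte markers and its 9 neuronal markers summed to 105 CPM. The naive microglia library was shallow, with a median of 425 UMIs per cell.

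Apolipoproteins are the protein shell of lipoprotein particles. In the brain, astrocytes are the main source of apolipoprotein E in health, while microglia are known to raise Apoe when they leave their resting state. ABCA1 and ABCG1 load cholesterol and phospholipid onto these particles, LPL frees fatty acids from their triglyceride, and TREM2 is a surface receptor on microglia that binds lipids and lipoproteins and signals through TYROBP. Many of these genes, among them Apoe, Apoc1, Apoc4, Abca1, Abcg1 and Lpl, are known targets of the liver X receptors, which are nuclear receptors that respond to oxidised cholesterol.

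Apoe, Apoc1, Apoc4 and Apoc2 lie next to each other on the minus strand of chromosome 7, within 27610 bases of the mouse genome build GRCm38 (chr7:19671579-19699188). Apoe (ENSMUSG00000002985) spans chr7:19696109-19699188, Apoc1 (ENSMUSG00000040564) chr7:19689481-19692660, Apoc4 (ENSMUSG00000074336) chr7:19678083-19681479 and Apoc2 (ENSMUSG00000002992) chr7:19671579-19677941. Tyrobp is on the same chromosome at chr7:30413760-30417585. Trem2 (chr17:48346401-48354147), Pla2g7 (chr17:43568098-43612201) and Abcg1 (chr17:31057675-31117988) are on chromosome 17, Abca1 (chr4:53030787-53159895) on chromosome 4 and Lpl (chr8:68880491-68907448) on chromosome 8. The readthrough gene Gm44805 shares 646 exonic bases with Apoc2, which is 79.5% of that gene's exons, and 119 with Apoc4. It had 0 UMIs in every library, and reads from the shared exons cannot be told apart, so the counts of Apoc2 are uncertain. An antisense gene, 1700071M16Rik, shares 319 exonic bases with Pla2g7.

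The promoter windows below, from 250 bases before to 50 bases after the start, are printed for the 3 members that rose in the GFP+ sort and have a window in the RefSeq promoter table of GRCm38.p6. The table lists 3 windows for Apoe, and the one at the start of the gene is shown. Those of Apoc4 and Pla2g7 begin transcription inside the annotated gene and not at its first base. Capitals mark GAGGAA, the core bound by the myeloid factor PU.1, AGGTCA, the nuclear receptor half-site, or TATAAA, the TATA box, on either strand, and no capitals overlap another match.
Apoe promoter, chr7:19699139-19699438, minus strand: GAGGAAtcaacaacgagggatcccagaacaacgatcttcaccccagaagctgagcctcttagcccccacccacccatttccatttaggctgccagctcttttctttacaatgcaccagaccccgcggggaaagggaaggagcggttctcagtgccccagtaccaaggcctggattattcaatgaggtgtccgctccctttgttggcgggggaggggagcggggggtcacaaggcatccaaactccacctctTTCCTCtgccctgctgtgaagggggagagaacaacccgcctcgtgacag
Apoc4 promoter, chr7:19681411-19681710, minus strand: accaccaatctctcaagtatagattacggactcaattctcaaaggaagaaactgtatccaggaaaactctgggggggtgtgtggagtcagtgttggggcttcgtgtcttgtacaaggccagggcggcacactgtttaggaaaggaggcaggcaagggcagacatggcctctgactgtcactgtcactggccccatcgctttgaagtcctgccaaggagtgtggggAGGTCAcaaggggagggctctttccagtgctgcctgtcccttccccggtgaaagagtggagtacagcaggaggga
Pla2g7 promoter, chr17:43568201-43568500, plus strand: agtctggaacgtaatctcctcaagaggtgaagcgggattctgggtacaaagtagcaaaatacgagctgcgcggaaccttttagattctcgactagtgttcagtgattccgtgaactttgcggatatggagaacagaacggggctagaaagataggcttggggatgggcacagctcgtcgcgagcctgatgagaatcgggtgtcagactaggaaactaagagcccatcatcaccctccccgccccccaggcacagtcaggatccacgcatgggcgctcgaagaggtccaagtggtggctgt
The Apoe window holds the PU.1 core at -250 and, on the other strand, at 2, counted from the start. The Apoc4 window holds the half-site at -25, and the Pla2g7 window holds none of these letters. Over all 32851 windows in the table, 28.3% hold the PU.1 core, 16.3% the half-site and 13.6% the TATA box, so a match is a description of the letters and not evidence of a bound site.

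Apoe was higher in GFP+ MLCs than in endogenous microglia of the same brains. In GFP+ cells it took 62648 CPM in the i.v. female, 56420 in the i.v. male, 73237 in the i.c.v. female and 86185 in the i.c.v. male. These values correspond to 5.64% to 8.62% of all UMIs. In the GFP- libraries of the same mice, in the same order, Apoe was at 12365, 15891, 38370 and 25394 CPM, or 1.24% to 3.84% of UMIs. The lowest GFP+ library was thus above the highest GFP- library, and within the GFP- sort both i.v. mice were below both i.c.v. mice. The means were 69622.5 ± 13042.7 CPM in GFP+ and 23005 ± 11628 CPM in GFP- cells (SD, n = 4 each), a ratio of 3.03. Within each mouse GFP+ exceeded GFP- cells, by 5.07-fold in the i.v. female, 3.55-fold in the i.v. male, 1.91-fold in the i.c.v. female and 3.39-fold in the i.c.v. male. In edgeR's quasi-likelihood test across all genes, the log2 fold change was 1.85 ± 0.37 (SE), with a Benjamini-Hochberg adjusted p of 0.0067. Adjusted p-values below are from that test unless DESeq2 is named, and a gene was called where its adjusted p was under 0.05. Each library sum pools cells of more than 1 type, and in such sums fewer cells of a type and less RNA per cell cannot be told apart.

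Apoc4, a small apolipoprotein encoded downstream of Apoe and far less abundantly counted, had the same pattern. It was at 22.3, 21.0, 23.1 and 21.6 CPM in the GFP+ libraries, in the order used for Apoe. The GFP- libraries had 2.21, 3.68, 10.4 and 6.81 CPM, from only 11 to 84 UMIs each. The groups did not overlap, and the GFP+ libraries were close to each other while the GFP- libraries spread more widely, with both i.v. mice below both i.c.v. mice. Apoc4 rose in GFP+ cells by 2.15 ± 0.38 on the log2 scale (adjusted p = 0.0042).

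Apoc1, which slows the removal of lipoproteins, sits between Apoe and Apoc4 in the locus. It was low in both sorts, at 4.87 to 6.60 CPM in GFP+ and 2.19 to 6.24 CPM in GFP- libraries, from 17 to 109 UMIs each. The ranges overlapped, and the difference of 0.57 ± 0.29 on the log2 scale had an adjusted p of 0.149. Apoc2, the cofactor that LPL needs, had 0 or 1 UMI in every library. In GFP+ cells of the i.v. female, 0 of 16514669 UMIs allows up to 0.182 CPM of counted Apoc2 (3 counts, counting error only). Because 79.5% of its exons are shared with Gm44805, that value is no upper limit on Apoc2 RNA. Apoc2 was thus not counted here beyond single UMIs.

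Lpl, the lipoprotein lipase, leaned the other way but varied widely. The GFP+ libraries had 28.9, 14.4, 8.94 and 14.8 CPM and the GFP- libraries 113.3, 20.8, 49.6 and 24.0 CPM. GFP+ was the lower sort in each of the 4 mice, yet the i.v. female's GFP+ library was above the GFP- libraries of both males. The log2 difference of -1.30 ± 0.56 did not pass the test (adjusted p = 0.100). It passed where libraries were scaled by their totals alone (-1.60, adjusted p = 0.039) and where every cell was thinned to 500 UMIs (-1.37, adjusted p = 0.019). Without the i.v. female's GFP- library, which held the highest level, the difference was -0.63 (adjusted p = 0.326).

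Pla2g7, the secreted acetylhydrolase that breaks down platelet-activating factor and travels on lipoproteins, was higher in GFP+ cells. Its CPM was 170.0, 98.1, 195.5 and 129.4 in the GFP+ libraries. The GFP- libraries had 38.0, 39.7, 108.4 and 36.1, so that only the i.c.v. female reached into the GFP+ range. Each mouse had more in its GFP+ than in its GFP- cells, from 1.80-fold to 4.47-fold. The log2 fold change was 1.66 ± 0.40 (adjusted p = 0.0136).

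The exporters ABCA1 and ABCG1 did not pass the test between the sorts. Abca1 was at 312.5, 412.9, 488.3 and 569.7 CPM in the GFP+ and at 362.3, 432.6, 414.6 and 409.9 CPM in the GFP- libraries. The GFP+ sort held both the lowest and the highest value, with GFP+ below GFP- in both i.v. mice and above it in both i.c.v. mice on this scale. The fitted difference was 0.41 ± 0.17 (log2, adjusted p = 0.083), and it was called without the i.v. female's GFP+ library (0.53, adjusted p = 0.0229) and with cells thinned to 500 UMIs (0.77, adjusted p = 0.0226). Abcg1 ranged over 63.8 to 108.0 CPM in GFP+ and 78.7 to 97.2 CPM in GFP- libraries, with means of 88.0 ± 18.2 and 87.3 ± 9.5. Its fitted difference was 0.29 ± 0.15 (adjusted p = 0.163), and it too was called once the i.v. female's GFP+ library was left out (0.40, adjusted p = 0.0413).

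Of Trem2 and Tyrobp, the receptor and its signalling adaptor, only Tyrobp was called. Trem2 was at 1388, 1228, 1702 and 1778 CPM in the GFP+ and at 1767, 1752, 1488 and 1760 CPM in the GFP- libraries. The ranges overlapped, with the 2 i.v. GFP+ libraries below all others. Its log2 difference was 0.13 ± 0.13 (adjusted p = 0.465), and the sign turned to -0.15 with library totals alone and to -0.36 with thinned cells, neither of them called. Tyrobp was at 2817, 2378, 2341 and 2490 CPM in the GFP+ libraries. Its GFP- values were 2160, 1855, 2252 and 2121 CPM, without overlap, and each mouse was higher in GFP+ cells by 1.04-fold to 1.30-fold. Tyrobp rose by 0.54 ± 0.14 (log2, adjusted p = 0.0201), and 6 alternatives ended this call. The adjusted p was 0.114 with library totals alone, 0.714 with thinned cells, 0.0515 with the mouse as a block, 0.0614 without the i.v. male's GFP- library and 0.0523 without that from the i.c.v. male. It was 0.269 without CAM-marker cells and cells of other types.

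**Figure D1:**
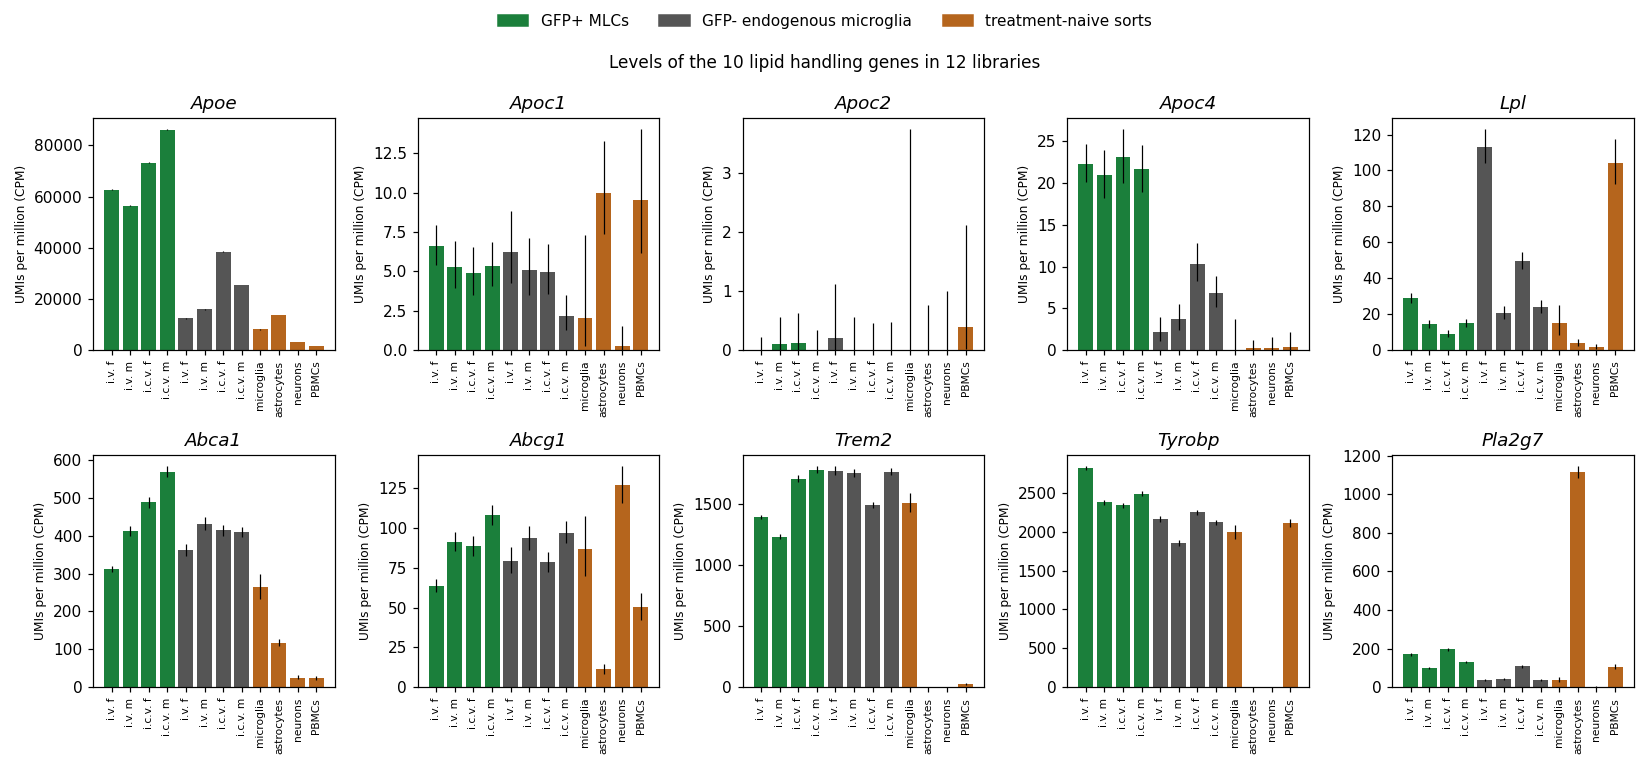
Levels of the 10 genes (CPM, linear axis from 0, a scale of its own in each panel) in the 12 libraries, as bars with exact Poisson 95% intervals for counting error only. Every GFP+ bar (green) of Apoe, Apoc4 and Tyrobp is above every GFP- bar (grey), the Pla2g7 bar of the naive astrocyte library stands at 1115 CPM, and Trem2 is at or near 0 in the naive astrocyte and neuron libraries (brown).

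In all, 4 of the 9 tested members were called higher in GFP+ cells (Apoe, Apoc4, Tyrobp and Pla2g7) and none lower. Across all 11756 genes tested, 32.5% were called, 16.6% as higher and 15.9% as lower, and no test of the members' share was made. On the raw CPM scale, 3 of the members (Apoe, Apoc4 and Tyrobp) had sorts that did not overlap, against 38.9% of all genes. The exact permutation test over 4 against 4 libraries, which did not keep the libraries of a mouse together, gave each of these 3 a p of 0.0286. That is the smallest p this test can give, and any gene whose sorts do not overlap gets it. Scaling by library totals alone shifts the median of all genes by -0.27 (log2) in this comparison, and turns the calls over all genes from 1951 higher and 1869 lower into 770 and 3803. Under that scaling Apoe (1.60), Apoc4 (1.89) and Pla2g7 (1.41) stayed called. They also stayed called in every fit that left out 1 library.

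Within the i.v. mice, the same 4 members were called higher, where 35.9% of 12540 genes were called and 18.9% were called higher. This comparison and the one within i.c.v. mice come from a common fit to all 8 libraries. The spread behind their p-values is therefore shared by both routes. With library totals alone the calls over all genes there were 1258 higher and 4552 lower, against 2376 and 2128. Apoe was higher in GFP+ cells by 2.47 ± 0.25 (log2, adjusted p = 5.4e-04) and Apoc4 by 3.23 ± 0.28 (adjusted p = 3.6e-04). Tyrobp differed by 0.76 ± 0.16 (adjusted p = 0.0076) and Pla2g7 by 2.18 ± 0.49 (adjusted p = 0.0098). The Pla2g7 call was lost without either GFP- i.v. library (adjusted p = 0.0543 and 0.0573), and that of Tyrobp with library totals alone (adjusted p = 0.0692) and with thinned cells (adjusted p = 0.198).

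Within the i.c.v. mice, Apoe and Apoc4 were called higher, where 5.77% of all genes were called, 1.34% as higher and 4.43% as lower. With library totals alone 101 genes were higher and 888 lower, against 168 and 555. Apoe rose by 1.49 ± 0.24 (adjusted p = 0.0133) and Apoc4 by 1.54 ± 0.24 (adjusted p = 0.0122). Pla2g7 (1.32 ± 0.47, adjusted p = 0.154) and Tyrobp (0.31 ± 0.16, adjusted p = 0.306) did not pass, and Pla2g7 was called without the i.c.v. female's GFP- library (2.37, adjusted p = 0.0231). Either call was lost without the i.c.v. male's GFP+ library (adjusted p = 0.0973 for Apoe, 0.0852 for Apoc4) or without its GFP- library (0.051 and 0.0797). That of Apoc4 was also lost without the i.c.v. female's GFP+ library (adjusted p = 0.0574) and with thinned cells (adjusted p = 0.0749). With the mouse as a block, 4 members were called, with Abca1 (0.52, adjusted p = 0.0458) and Pla2g7 (1.49, adjusted p = 0.0177) added. Calls also rose over all 12540 genes in that fit, to 458 higher and 825 lower.

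**Figure D2:**
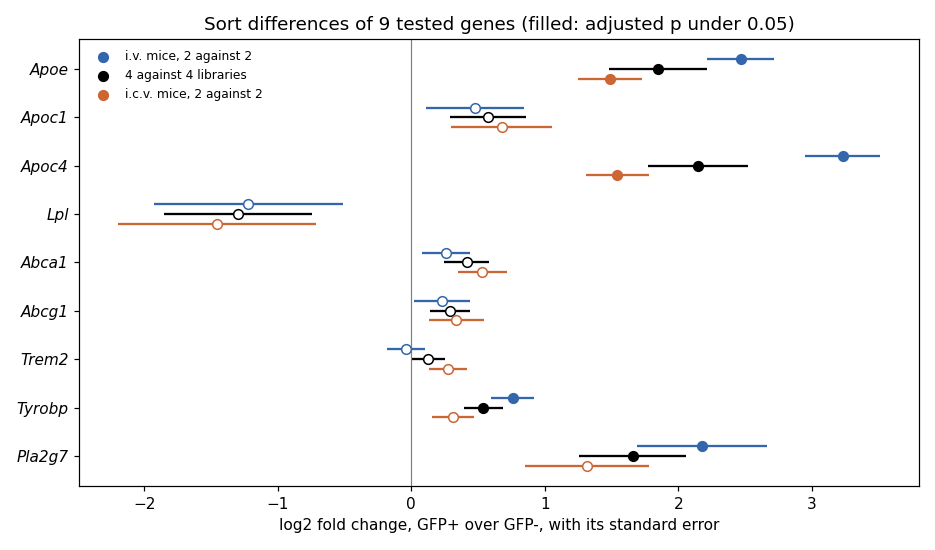
Log2 fold changes of GFP+ over GFP- libraries for the 9 tested genes, with standard errors as bars. Black points compare the sorts over all mice, blue points within i.v. mice and orange points within i.c.v. mice. The within-route points come from a common fit to all 8 libraries, which share the spread. Filled points have an edgeR adjusted p under 0.05; Apoe and Apoc4 are filled in all 3 comparisons and Lpl lies left of 0 in all 3, unfilled.

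The route of dosing was compared within each sort. Among GFP+ libraries, 0 of 9 members were called by edgeR, 1 had an unadjusted p under 0.05 (Abca1, lower after i.v. by 0.44 ± 0.18, adjusted p = 0.279) and DESeq2 called 0, where edgeR called 2.78% of all genes. Apoe in the GFP+ libraries differed between routes by -0.31 ± 0.24 (adjusted p = 0.559). Neutrophil markers moved with the route there, at 1627 and 3265 CPM over 9 genes in the i.v. GFP+ libraries and at 1.02 and 0.825 CPM in the i.c.v. ones, where 8 and 6 of the 9 were at 0. Monocyte markers did likewise (294 and 197 against 2.38 and 3.21 CPM over 8 genes), as did dendritic cell markers (206 and 378 against 9.96 and 41.1 CPM over 7 genes), and cells with markers of other types were 3.98% and 4.68% of the i.v. and 0.839% and 0.735% of the i.c.v. GFP+ cells. Their part in the route values was not tested.

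Among GFP- libraries, values of Apoe and Apoc4 were lower in both i.v. than in both i.c.v. mice. Apoe was at 12365 and 15891 CPM after i.v. and at 38370 and 25394 CPM after i.c.v. dosing, a log2 difference of -1.29 ± 0.24. Apoc4 differed by -1.63 ± 0.30. By edgeR 0 of 9 members and 0 of 12540 genes were called (0% of all genes), with an adjusted p of 0.321 for both. In the same comparison 2 members and 1063 genes had an unadjusted p under 0.05. DESeq2 called 1 gene higher and 69 lower after i.v. dosing, and Apoe (adjusted p = 2.2e-05) and Apoc4 (adjusted p = 0.0136) were among the lower ones. In edgeR without the i.c.v. male's GFP- library, Apoe was called (-1.60, adjusted p = 0.0319). CAM markers moved with it, since 3.93% and 5.07% of cells carried at least 3 of them in the GFP- i.v. libraries and 13.3% and 9.20% in the GFP- i.c.v. libraries. Neutrophil markers (255 and 57.2 CPM after i.v., 5962 and 979 CPM after i.c.v. dosing) and oligodendrocyte markers (89.1 and 90.6 against 297 and 354 CPM) also differed between these libraries. The part of such cells in the difference was not tested. Within cells that had microglia markers and fewer than 3 CAM markers, Apoe was at 5149 and 6894 CPM after i.v. and at 21674 and 10241 after i.c.v. dosing. Cells with some CAM markers can remain in that class, and its values were not tested between routes.

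The difference between the 2 routes in the sort difference was tested as an interaction. By edgeR 0 of 9 members were called, where 1.91% of all genes were, and 2 had an unadjusted p under 0.05, namely Apoe (0.98 ± 0.33, adjusted p = 0.177) and Apoc4 (1.69 ± 0.37, adjusted p = 0.066). DESeq2 called both (adjusted p = 0.0401 and 0.0234), and the fit with the mouse as a block called Apoc4 (adjusted p = 0.0401). Over all genes the calls were 226 higher and 14 lower, and 184 and 36 with library totals alone. DESeq2 called 547 higher and 51 lower over all genes, and the block fit 608 and 70.

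Apoe was also read cell by cell. To compare cells of unequal depth, 500 UMIs were drawn at random from each cell, and cells with fewer were left out, which removed none in the treated libraries, 792 of 1274 in naive microglia, 93 of 575 in the library labelled neurons and 7 of 341 PBMCs. The median cell then held 21, 14, 14 and 27 Apoe UMIs of 500 in the GFP+ libraries. In the GFP- libraries the median cell held 1, 2, 10 and 3. The GFP+ medians all lay above the GFP- medians (means 19.0 ± 6.3 and 4.0 ± 4.1, SD, n = 4, exact permutation p = 0.0286, two-sided).

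How unevenly Apoe was spread over the cells differed within the GFP- sort. The 10% of cells with most Apoe held 72.3%, 53.3%, 35.4% and 52.7% of the Apoe UMIs in the GFP- libraries and 31.5%, 34.3%, 32.8% and 24.99% in the GFP+ libraries, so that the i.c.v. female's GFP- library was close to the GFP+ libraries. Cells with at least 5 Apoe UMIs of 500 made up 75.4%, 80.1%, 84.9% and 97.4% of the GFP+ and 13.4%, 28.2%, 71.8% and 42.6% of the GFP- libraries (exact permutation p = 0.0286). The sorts did not overlap here, and the i.c.v. female was again the highest of the GFP- libraries. At least 20 Apoe UMIs were held by 38.4% to 65.8% of GFP+ and 4.44% to 18.4% of GFP- cells. Cells without any Apoe UMI were 0.509% to 7.72% of GFP+ and 3.65% to 36.9% of GFP- cells, ranges that overlapped (exact permutation p = 0.0857). As a measure of free RNA, cells with neutrophil markers, which should lack Apoe, were read at the same depth. Only those with fewer than 3 microglia and fewer than 3 CAM markers were taken. They were 12 of 14 and 23 of 25 in the i.v. GFP+ libraries and 9 of 20 in the i.c.v. female's GFP- library. These cells held 333, 1304 and 2000 CPM of Apoe, below the levels of the whole libraries. With few cells of 500 UMIs each, these values rest on few Apoe UMIs, and no interval was computed for them. Leaving out the others can lower these values, and the part of free RNA in Apoe was not tested.

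**Figure D3:**
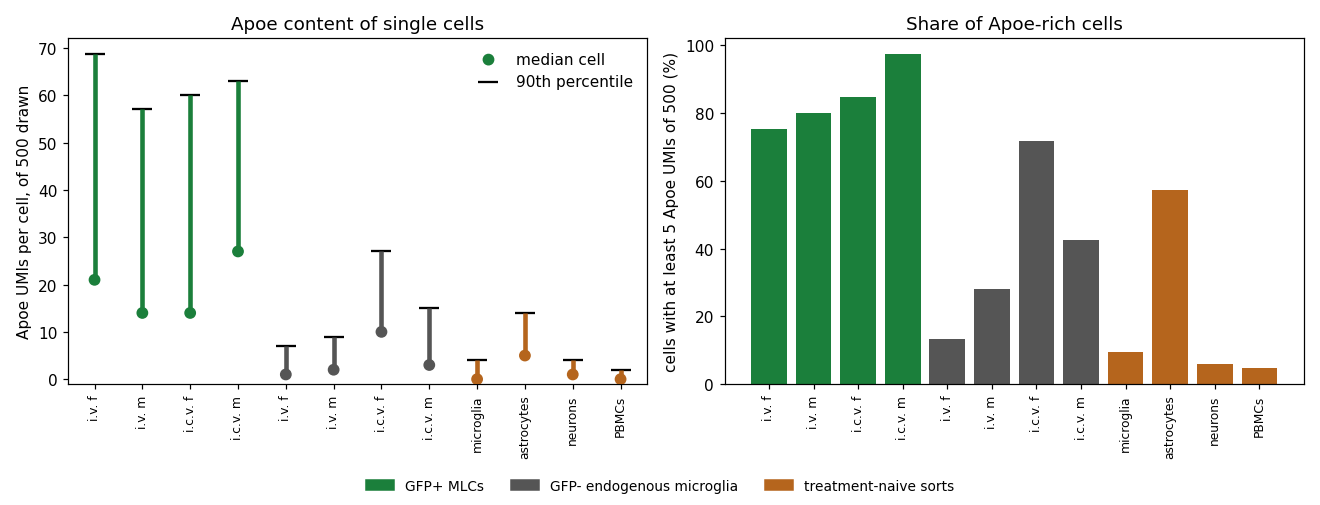
Left, Apoe UMIs per cell of 500 drawn, as the median cell (point) and the 90th percentile (tick), in each of the 12 libraries. Right, the share of cells with at least 5 such UMIs in percent, 75.4% to 97.4% in GFP+ libraries (green), 13.4% to 71.8% in GFP- libraries (grey) and 57.3% in naive astrocytes (brown).

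Shares of cells with at least 1 UMI, at the same 500 UMIs per cell, gave a partly different picture. Sorts did not overlap for 3 of the 10 members, Apoc4, Lpl and Trem2, against 17.4% of all genes. Apoc4 was seen in 0.610% to 0.848% of GFP+ and 0.0374% to 0.367% of GFP- cells, and Lpl in 0.265% to 0.927% of GFP+ and 1.12% to 2.28% of GFP- cells. Trem2 was seen in 41.9%, 31.2%, 36.7% and 44.0% of GFP+ and in 48.0%, 55.5%, 50.1% and 52.5% of GFP- cells. Each of the 3 had an exact permutation p of 0.0286, which follows from the lack of overlap. All 3 genes were seen in 0 of 482 cells of the library labelled neurons at this depth. At the cells' own depths (medians of 1058 to 3499 UMIs in GFP+ and 842 to 1034 in GFP- libraries), the Trem2 shares were 53.1% to 72.0% and 71.0% to 74.7% and overlapped, as did the shares of Lpl. The separation of Trem2 was also lost at an equal depth of 1000 UMIs (52.1% to 68.9% and 64.9% to 71.5%, exact permutation p = 0.286) and in cells kept by stricter filters at 500 UMIs (exact permutation p = 0.114). At 1000 UMIs the shares of Tyrobp did not overlap, at 70.3% to 84.5% in GFP+ and 61.5% to 69.4% in GFP- cells (exact permutation p = 0.0286).

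The levels, as CPM over the UMIs drawn at 500 per cell, were then taken within cells grouped by their markers, a split chosen after the values above were known. One class held cells with at least 3 microglia markers and fewer than 3 CAM markers, the other cells with at least 3 CAM markers, counted at each cell's own depth, whose library medians were higher in GFP+ cells as given above. CAM-marker cells were 33.9% to 48.3% of the GFP+ and 3.93% to 13.3% of the GFP- libraries. In the microglia-marker cells Apoe was at 33918 to 53944 CPM in GFP+ and 5149 to 21674 in GFP- libraries (means 44118.5 ± 9570.4 and 10989 ± 7430, n = 4, exact permutation p = 0.0286). In the CAM-marker cells it was at 75492 to 85243 and at 55584 to 61803 CPM (exact permutation p = 0.0286). Apoe was higher in CAM-marker than in microglia-marker cells of each sort, and higher in GFP+ than in GFP- cells of each class.

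At the drawn depth, Trem2 was separated between the sorts in the microglia-marker class only. There it was at 759 to 1382 CPM in GFP+ and 1458 to 1766 in GFP- libraries, without overlap (exact permutation p = 0.0286, the smallest this test can give). The classes were read at that depth alone, and no share of all genes was computed for them. Over whole libraries, the separation of Trem2 shares at that depth was lost at the greater depth and under stricter filters, as given above. The fit without CAM-marker cells and cells of other types, given below, did not call Trem2. In CAM-marker cells it was at 1551 to 1702 in GFP+ and 1295 to 1553 in GFP- libraries (exact permutation p = 0.0571). Pla2g7 was at 52.5 to 116 CPM in the microglia-marker cells of GFP+ and 13.7 to 61.6 in those of GFP- libraries (exact permutation p = 0.0571), and in CAM-marker cells the sorts overlapped widely, at 109 to 284 and 106 to 343. Abca1 and Tyrobp overlapped between sorts in both classes.

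**Figure D4:**
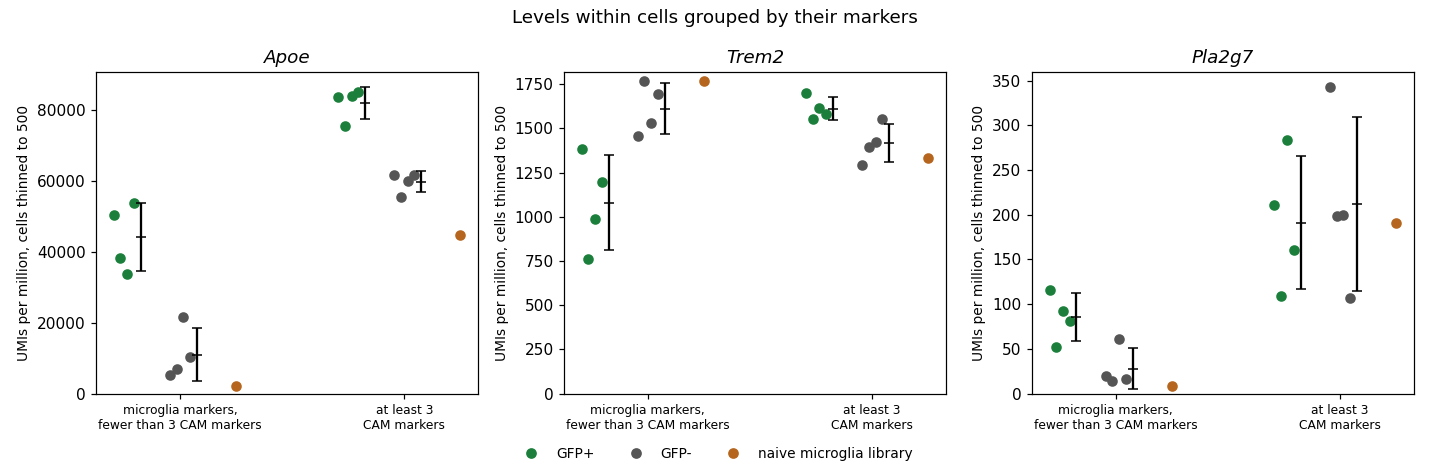
Apoe, Trem2 and Pla2g7 (CPM over the UMIs drawn at 500 per cell, linear axis from 0) within cells with microglia markers and fewer than 3 CAM markers and within cells with at least 3 CAM markers, 1 point per library, with bars at the mean ± SD of 4 libraries. GFP+ points (green) of Apoe lie above the GFP- points (grey) in both classes, while those of Trem2 lie below them in the microglia-marker class. The classes were read at this depth alone.

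With CAM-marker cells and cells of other types left out, an alternative added after seeing the data, 3 members were called between the sorts. Over all 10905 genes tested, this fit called 742 higher and 805 lower, against 1951 and 1869 of 11756 in the main fit. Calls were thus fewer across all genes, and not only among the members. Apoe differed by 1.99 (log2, adjusted p = 0.0169), Apoc4 by 2.15 (adjusted p = 0.0088) and Pla2g7 by 1.99 (adjusted p = 0.0266). Tyrobp (0.37, adjusted p = 0.269) no longer passed, and Trem2 was at -0.33 (adjusted p = 0.315). The part of CAM RNA that remained in these cells was not tested.

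Astrocytes are the other known source of Apoe. The 9 astrocyte markers, none at 0, summed to 29.3 to 67.5 CPM in GFP+, 119 to 168 CPM in GFP- and 12556 CPM in the naive astrocyte library, which itself had 13670 CPM of Apoe. The part of astrocyte RNA in the Apoe values was not tested. Pla2g7 was highest in that astrocyte library, at 1115 CPM.

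Next, cells with at least 5 Apoe UMIs of 500 were set against cells with none within each treated library, to see what else went with Apoe. Of the 8 other members detected at this depth, 3 were higher in Apoe-rich cells in 8 of 8 libraries, against 3.37% of all genes. Abca1 had 1.40 to 9.82 times the level of Apoe-free cells, and Trem2 1.004 to 7.13 times, with a median ratio of 1.17. Pla2g7 had 1.56 to 18.7 times in the 5 libraries whose Apoe-free cells had any, and was seen only in Apoe-rich cells in the other 3. CAM markers went the same way, at 2.94 to 11.1 times in 8 of 8 libraries. Microglia markers did not, being lower in Apoe-rich cells in 5 libraries and higher in 3. In Apoe-free cells the microglia markers summed to as little as 1255 CPM and the monocyte markers to as much as 788 CPM, and the latter were lower in Apoe-rich cells in 6 of 8 libraries. The part of these other cells in the ratios was not tested. Only 18 to 987 cells per library were Apoe-free, 18 and 36 of them in the i.c.v. GFP+ libraries, so the ratios rest on few cells there. The count rests on the threshold. At 3 Apoe UMIs 2 members passed, since Trem2 was then higher in 6 and lower in 2 libraries. At 20 Apoe UMIs, a threshold added after seeing the data, 5 passed, Apoc1 and Tyrobp besides these 3. Apoc1 was low there, at 2.20 to 32.8 CPM in Apoe-rich and 0 to 2.11 CPM in Apoe-free cells. The share of all genes was computed at 5 Apoe UMIs alone, so the counts at 3 and 20 have none beside them.

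**Figure D5:**
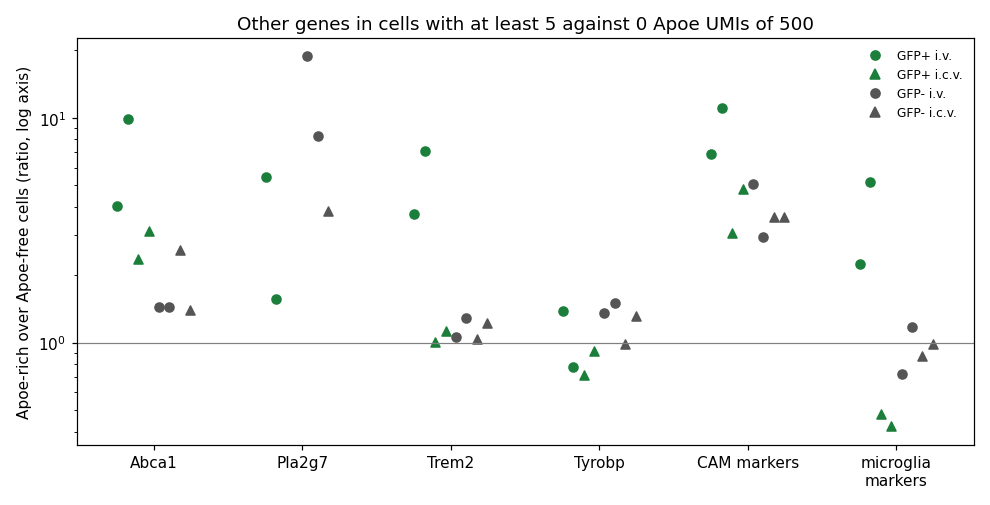
Ratio of CPM in cells with at least 5 Apoe UMIs of 500 over that in cells with none (log axis), for 4 genes and 2 summed marker lists, with 1 point per treated library where the Apoe-free cells had a UMI. Abca1, Pla2g7 and the CAM markers lie above 1 in every library shown, whereas Trem2 has a median ratio of 1.17 and the microglia markers fall on both sides of 1.

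The naive libraries set the levels in the 4 sorted populations, each from 1 library with no test, and the intervals are exact Poisson 95% intervals that cover counting error only. Apoe was at 8144 CPM in microglia (7967 to 8324), 13670 CPM in astrocytes (13565 to 13775), 3066 CPM in the library labelled neurons (3010 to 3123) and 1610 CPM in PBMCs (1562 to 1659). The mean of the GFP- libraries was 2.83 times and that of the GFP+ libraries 8.55 times the naive microglia level. That level rests on the cell filter, being 6821 CPM with all barcodes and 13310 CPM where cells needed 500 genes and no more than 5% mitochondrial UMIs, and under that stricter filter it was above that of astrocytes (12207 CPM). Of the naive microglia with 500 UMIs, 9.54% held at least 5 Apoe UMIs, fewer than in any treated library. In 21 naive cells with at least 3 CAM markers Apoe was at 44667 CPM, and in 442 with microglia markers and fewer CAM markers at 2149. In the astrocyte library 81 cells with oligodendrocyte markers held Apoe at 7704 CPM against 14091 in 1075 cells with astrocyte markers, and the part of doublets and free RNA in the former was not tested.

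The other members differed widely between the naive libraries. Trem2 was at 1507 CPM in naive microglia, 1.25 CPM in astrocytes, 25.8 CPM in PBMCs and 0 in the library labelled neurons. With the stricter filter the microglia had 918 CPM. Tyrobp, which also serves receptors of blood leukocytes, was at 1991 CPM in microglia and 2113 CPM in PBMCs but at 3.75 and 1.08 CPM in astrocytes and the library labelled neurons. Both lipid exporters were measured in every population. Abca1 was at 264 CPM in microglia, 118 CPM in astrocytes, 25.3 CPM in the library labelled neurons and 23.2 CPM in PBMCs. Abcg1 was highest in the library labelled neurons at 127 CPM, against 87.0, 11.2 and 50.2 CPM in microglia, astrocytes and PBMCs. Lpl was at 104.1 CPM in PBMCs and 15.2, 3.95 and 1.61 CPM in microglia, astrocytes and the library labelled neurons. Pla2g7, at 1115 CPM in astrocytes, had 38.5, 1.88 and 105.3 CPM in microglia, the library labelled neurons and PBMCs. Apoc4 had 0 UMIs in naive microglia, which allows up to 3.04 CPM at that depth, and 1 UMI in each of the other 3, while Apoc1 was at 9.99 CPM in astrocytes and 9.50 CPM in PBMCs.

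Beyond the members, 123 genes in 10 lists of lipid handling were followed, of which 99 were tested between the sorts. In GFP+ cells 14 were called higher and 15 lower, or 29.3% of the tested genes beside 32.5% of all genes, with a median log2 difference near 0. DESeq2 called 16 in each direction. With library totals alone edgeR called 11 higher and 27 lower, so the balance of directions rests on the scaling. Within i.v. mice 28 of 105 tested list genes were called higher, among them 3 of 16 genes of sterol synthesis, and 17 lower. Over all 12540 genes 2376 were higher and 2128 lower there. Within i.c.v. mice 2 list genes were higher and 8 lower, where 168 and 555 of all genes were.

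Cholesterol esterification, lipid droplets and oxysterols leaned one way, with 5 of 9 tested genes higher and none lower (median 0.48 beside 0.01 for all genes, of which 16.6% were higher). Plin3 and Plin2, which coat lipid droplets, were at 27.4 to 38.8 and 101.8 to 160.4 CPM in GFP+ and at 9.19 to 23.6 and 44.1 to 102.3 CPM in GFP- libraries. Plin3 rose by 1.32 ± 0.29 (adjusted p = 0.0102) and Plin2 by 1.13 ± 0.29 (adjusted p = 0.0169). Cyp27a1, which makes 27-hydroxycholesterol, rose by 0.90 ± 0.11 (adjusted p = 9.1e-04), and Soat1 and Nceh1, which esterify cholesterol and reverse that step, were the other genes called. No gene of the list was called lower under library totals alone (4 higher), with thinned cells (3 higher of 7 tested) or without 1 library (2 to 5 higher). The count was 2 without the i.v. male's GFP- library, 3 without that mouse's GFP+ library and 3 without the i.c.v. male's GFP- library.

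Receptors and transporters were called in both directions. Of 12 lipoprotein and scavenger receptors tested, 2 were higher and 3 lower. Sort1, the sorting receptor sortilin that also binds apolipoprotein E, was at 16.2 to 26.9 CPM in GFP+ and 54.2 to 96.0 CPM in GFP- libraries (-1.48 ± 0.18, adjusted p = 9.4e-04). Scarb1, a receptor for high-density lipoprotein, fell by 0.99 ± 0.17 (adjusted p = 0.0039), and Msr1, a macrophage scavenger receptor, rose by 1.32 ± 0.29 (adjusted p = 0.0105). Of 9 transporters, 3 were higher and 4 lower, among them Pltp, which transfers phospholipid between particles (1.19 ± 0.27, adjusted p = 0.0110), Npc2, which moves cholesterol out of lysosomes (0.67 ± 0.14, adjusted p = 0.0072), and the lipid pump Abca7 (-0.90 ± 0.14, adjusted p = 0.0025). With thinned cells Npc2 (0.26, adjusted p = 0.453) and Abca7 (-0.52, adjusted p = 0.121) were no longer called, and Npc2 was not called without CAM-marker cells either (adjusted p = 0.113).

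Enzymes and regulators were called in small numbers. Among 6 lipases and partners, Lipa, the lysosomal acid lipase, was higher (0.70 ± 0.15, adjusted p = 0.0089) and Mgll, which splits monoglycerides, lower (-1.44 ± 0.20, adjusted p = 0.0017). Of 10 liver X receptor and SREBP genes, 2 were lower, Scap, the sterol sensor that escorts SREBP (-0.95 ± 0.16, adjusted p = 0.0039), and Rxra, the partner of the liver X receptors (-0.45 ± 0.13, adjusted p = 0.0240). Between the sorts, of 16 genes of sterol synthesis and of 2 other apolipoproteins tested, 0 were called by edgeR, 0 had an unadjusted p under 0.05 and DESeq2 called 0. Fatty acid genes gave 1 higher and 2 lower of 12, with Acsl1 at 0.77 ± 0.16 (adjusted p = 0.0086), Scd2 at -0.77 ± 0.15 (adjusted p = 0.0063) and Acly at -0.57 ± 0.09 (adjusted p = 0.0035). Some of these calls were lost under alternatives. With thinned cells the adjusted p was 0.252 for Lipa, 0.0852 for Rxra and 0.0991 for Scd2. Without CAM-marker cells it was 0.150 for Lipa and 0.0582 for Rxra, and with stricter cell filters 0.0571 for Rxra.

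In the signalling chain of TREM2 and TYROBP, 1 of 14 tested genes was higher and 2 were lower. Inpp5d, a phosphatase that dampens this signal, was at 198 to 300 CPM in GFP+ and 380 to 536 CPM in GFP- libraries (-0.62 ± 0.13, adjusted p = 0.0080). Plcg2, the phospholipase downstream of the receptor, fell by 0.47 ± 0.12 (adjusted p = 0.0189), and Treml2 was the gene called higher. Without CAM-marker cells none of these calls held, with an adjusted p of 0.132 for Inpp5d and 0.0686 for Plcg2. That fit called fewer genes in all, 742 higher and 805 lower against 1951 and 1869. With thinned cells Inpp5d was not called (-0.28, adjusted p = 0.336). Among 9 phospholipases and acetylhydrolases related to Pla2g7, Pafah1b3, a subunit of the intracellular acetylhydrolase, was higher (0.68 ± 0.13, adjusted p = 0.0067) and Pla2g4a, the cytosolic phospholipase that releases arachidonic acid, lower (-0.82 ± 0.13, adjusted p = 0.0031). Thinned to 500 UMIs, Pafah1b3 was at -0.011 (adjusted p = 0.987), and without CAM-marker cells its adjusted p was 0.0552.

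Between routes, 10 of 105 tested list genes were higher in GFP+ cells after i.v. than after i.c.v. dosing and none was lower, where 2.78% of all genes were called, 321 higher and 27 lower. Among the 10 were 3 of 16 genes of sterol synthesis. The neutrophil and other blood cell markers given above differed between the same libraries, and their part in these calls was not tested. In GFP- cells 0 of 105 were called by edgeR, 16 had an unadjusted p under 0.05 and DESeq2 called 4, all lower after i.v. dosing. The interaction called 6, all higher, where 1.91% of all genes were called, 226 higher and 14 lower, and Plin3 was among them (1.53 ± 0.30, adjusted p = 0.0436). Among the 6 were also 2 genes of sterol synthesis.

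Over the 12 libraries, the genes whose log2(CPM + 1) followed that of Apoe most closely, among 11659 genes, were Cp, the copper carrier ceruloplasmin (Pearson r = 0.984), Kcng2, a potassium channel subunit (0.972), and Nme4, a mitochondrial nucleotide kinase (0.961). For Lpl they were Trim30b (0.929), Rap1gap2 (0.916) and Nubp1 (0.904). These correlations describe 12 libraries of unequal depth and cell type that share mice in pairs. Cp was at 147 to 239 CPM in GFP+, 36.6 to 100 CPM in GFP-, 52.4 CPM in naive astrocytes and 18.2 CPM in naive microglia libraries.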

How the data were processed

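Droplet 3′ RNA-seq libraries from 4 treated C57BL/6J mice and from 1 treatment-naive mouse were analysed. The deposited values are raw UMI counts per gene and cell barcode, which the authors made with Cell Ranger 3.1.0 against mm10 (per the file headers and labels), without normalization. The 31054 features of the treated libraries include EGFP, and the naive libraries hold 31053.

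Barcodes were kept as cells from 200 detected genes upward and up to 10% of UMIs from mitochondrial transcripts, which left 2266 to 4555 cells per treated library and 341 to 1274 of the 2500 barcodes of each naive one. No doublets were removed. Any 2 libraries shared at most 8 barcodes. Counts were summed per library, and CPM is over all UMIs of the kept cells. Intervals and floors cover counting error only.

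The sums were tested in R 4.3.3 with edgeR 4.0.16 (TMM, quasi-likelihood, Benjamini-Hochberg over all genes tested). The comparison of sorts used sort alone, and the route and within-route comparisons a mean for each sort and route, fitted to all 8 libraries with a shared spread. DESeq2 1.42.0, other scalings, cell filters, thinning, the mouse as a block and leaving out each library were alternatives. The libraries of a sort came from 4 mice, and p-values measure the spread between them. GFP+ and GFP- libraries with the same number came from 1 mouse. The deviations of such pairs from their sort means correlated at 0.255, -0.270, -0.325 and 0.0448 across genes. Those of pairs from different mice correlated at -0.511 to 0.468. Route differences remain in these deviations, so the correlations do not measure the mouse alone. Single values were compared with exact two-sided permutation tests (scipy 1.17.1) that did not keep the libraries of a mouse together. The script was tested on simulated counts with known changes.

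The members, gene lists and marker lists were chosen with earlier results of these data known. Up to 3 genes per list are named, namely those called with the largest change, the same direction in 4 of 4 mice and a mean of at least 20 CPM in either sort, and up to 2 for each route comparison, of which 1 is not reported here. Soat1, Nceh1 and Treml2 are named outside this rule, after their values were seen. Like genes were ranked by Pearson r over genes whose CPM reached 10.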

Additional observations from a re-analysis of the deposited data

Results flagged for a closer look

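In 20 groups of 4 libraries checked for a value far from the others, 2 were marked, and chance marks about 1 in 20 such groups. Both were measured in the i.c.v. female's GFP- library. Trem2, the lipid-sensing receptor, was at 1488 CPM there, below the other GFP- libraries, and the gap to the nearest of them made up 0.947 of the group's range. Pla2g7, the acetylhydrolase of platelet-activating factor, was at 108.4 CPM there, above the other GFP- libraries, with a gap of 0.951 of the range. The same library held the highest GFP- level of Apoe (38370 CPM), the highest GFP- share of cells with at least 3 CAM markers (13.3%) and the highest neutrophil marker sum of the treated libraries (5962 CPM). The part of these in the 2 values was not tested.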

How the results depend on the processing

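Apoe, Apoc4 and Pla2g7 stayed called as higher in GFP+ cells under every alternative run for the comparison of sorts, with the Apoe difference between 1.63 and 2.26 (log2) over the fits without 1 library. Over those fits the number of members called was 3 to 6 between sorts, 3 to 4 within i.v. mice, 0 to 3 within i.c.v. mice (main 2), 0 to 1 for route in GFP- cells (main 0) and 0 to 1 for the interaction (main 0). Within i.c.v. mice 1 member was called with thinned cells and 4 with the mouse as a block. Over all genes those fits called 124 higher and 243 lower of 10160, and 458 higher and 825 lower of 12540. For route in GFP- cells and for the interaction, DESeq2 and the fit with no filter on low counts called 2 each, and the block called 1 for the interaction. Over all 20131 genes the fit with no filter called 2 higher and 81 lower for route in GFP- cells. For the interaction it called 636 higher and 62 lower. The block changed no other call than those given here and that of Tyrobp between sorts. Members whose shares of cells did not overlap numbered 5 at the cells' own depth (main 3), and 3 to 5 without 1 library. The 5 were Apoc1, Apoc4, Abca1, Abcg1 and Pla2g7, so Lpl and Trem2 dropped out. All 5 were seen in more GFP+ cells, which were also deeper by library median (1058 to 3499 against 842 to 1034 UMIs). At an equal 1000 UMIs the Pla2g7 shares did not overlap either, at 8.47% to 15.4% of GFP+ and 2.05% to 6.86% of GFP- cells. They also did not overlap at 500 UMIs with stricter filters. Shares of Apoc4 and Lpl did not overlap in either setting, whereas those of Apoc1, Abca1 and Abcg1 overlapped in both. The share of all genes was computed at 500 UMIs alone (17.4%). At 3 Apoe UMIs 2 members and at 20 Apoe UMIs 5 members went with Apoe-rich cells in place of 3, with no share of all genes computed at either threshold. Apoe in naive astrocytes was 12792 CPM with all barcodes, 12207 with stricter filters and 15155 with other cell types left out. In naive microglia it was 6821, 13310 and 8261 CPM (main 8144), which turns the order of the 2 under stricter filters.

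Signs turned for members that were not called, and the cause was not tested. With library totals alone, Trem2 went to -0.15 between sorts, Abca1 to -0.13 and Abcg1 to -0.16 within i.v. mice, and Apoc4 to -0.044 for route in GFP+ cells. With thinned cells, Trem2 went to -0.36 between sorts, -0.39 within i.c.v. mice, -0.063 for route in GFP- cells and 0.060 for the interaction, Tyrobp to -0.31 within i.c.v. mice, Apoc1 to -0.17 for route in GFP+ cells and Abcg1 to 0.045 for the interaction. Trem2 also went to -0.33 between sorts without other types and CAM-marker cells. Within i.v. mice Trem2 went to 0.0071 with stricter filters and 0.045 without other types. For route in GFP- cells Trem2 went to -0.014 with all barcodes, -0.022 without other types and -0.0018 with Apoe outside the totals.

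Without 1 library, values within i.v. mice ran from -1.97 to 0.50 for Lpl, -0.056 to 0.48 for Abcg1 and -0.12 to 0.043 for Trem2. For route in GFP+ cells Abcg1 ran from -0.53 to 0.0077 and Pla2g7 from -0.60 to 0.18. For route in GFP- cells Lpl ran from -0.97 to 1.5, Trem2 from -0.090 to 0.087 and Pla2g7 from -1.64 to 0.015. For the interaction Apoc1 ran from -0.93 to 0.31, Lpl from -0.52 to 1.95, Abcg1 from -0.40 to 0.14 and Pla2g7 from -0.17 to 1.48.

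Of the values for single genes, 1021 kept direction and side of the threshold, 38 turned, 22 gained a call and 16 lost one. Apoc1, Apoc4 and Lpl rest on few UMIs, the naive microglia on few cells of 500 UMIs, and each route on 2 mice.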
